A study of Rattus norvegicus with 16 samples.

Results

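Markers of neutrophils and inflammatory monocytes were followed as a measure of leukocyte RNA in the liver of septic and control rats. The set holds 9 genes, S100a8, S100a9, Csf3r, Cxcr2, Fpr1, Ccr1, Itgam, Ly6c and Mmp8, which were chosen by name as genes of these cells. The choice was made with earlier results of these data known. All 9 symbols were found among the 17055 gene symbols counted. Of these, 7 had enough reads to be tested, Fpr1 had between 3 and 6 reads in each whole group, and Ly6c had 0 reads in every library.

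Neutrophils and monocytes are made in the bone marrow, circulate in blood, and enter inflamed tissue along gradients of chemokines, bacterial peptides and complement fragments. Granulocyte colony-stimulating factor drives the release of neutrophils through its receptor Csf3r, Cxcr2 and Ccr1 read chemokine gradients, and integrins such as Itgam hold the cells to the vessel wall. In the septic liver such cells collect in the sinusoids, beside the resident macrophages called Kupffer cells.

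The libraries were made from liver of male Sprague-Dawley rats aged 10 weeks. Septic rats had undergone cecal ligation and puncture, a model of infection from the gut, and control rats had a celiotomy without it. For the isoflurane + sepsis and isoflurane control groups, isoflurane served for both induction and maintenance of anesthesia. The propofol + sepsis and propofol control groups received ketamine and xylazine for induction and propofol thereafter, so the anesthetics cannot be told apart from their induction drugs. Liver was taken 8 h after the celiotomy, and each library is a pool of 3 rats, with 4 libraries per group and 16 in all. The isoflurane + sepsis group holds libraries 1 to 4, its control group 5 to 8, the propofol + sepsis group 9 to 12 and its control group 13 to 16. The libraries of each anesthetic also carry a name prefix of their own, so any separate handling cannot be told apart from the anesthetic in direct comparisons between anesthetics.

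Between 14199422 and 49937173 reads per library were counted on genes. Values are CPM, read counts scaled to the same library size by TMM, a correction for differences in library composition. In bulk liver a change in the number of cells of a type and a change in RNA per cell cannot be told apart. Library 1 was the lowest of the isoflurane + sepsis group for 7 of 7 tested markers. Library 10, of the propofol + sepsis group, held a summed level of 398 CPM over 12 brain genes, against 6.30 to 29.7 CPM in the other 15 libraries, so the marker results that rest on propofol + sepsis are also given without it. The libraries had the RNA of liver, with a summed level of 103520 to 162850 CPM on 12 hepatocyte genes.

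The sequences upstream of the markers were searched because 5 markers were called higher with sepsis under both anesthetics. They come from RefSeq (build GRCr8), which holds entries for 7 of the 9 markers. The 250 bases before the start site are printed for 3 genes that rose under both anesthetics, 5′ to 3′ along the gene. Capitals mark GAGGAA, the core that PU.1 binds, and TTNNGCAA, a C/EBP motif, on either strand. PU.1 and C/EBP proteins are the transcription factors that set up the myeloid lineage.
S100a9, chr2:178490623-178490872, minus strand: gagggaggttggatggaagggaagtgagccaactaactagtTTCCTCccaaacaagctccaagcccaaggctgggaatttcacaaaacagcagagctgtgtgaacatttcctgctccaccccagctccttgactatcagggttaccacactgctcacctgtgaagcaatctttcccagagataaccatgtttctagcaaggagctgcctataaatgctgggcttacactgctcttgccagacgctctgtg
Itgam, chr1:192089342-192089591, plus strand: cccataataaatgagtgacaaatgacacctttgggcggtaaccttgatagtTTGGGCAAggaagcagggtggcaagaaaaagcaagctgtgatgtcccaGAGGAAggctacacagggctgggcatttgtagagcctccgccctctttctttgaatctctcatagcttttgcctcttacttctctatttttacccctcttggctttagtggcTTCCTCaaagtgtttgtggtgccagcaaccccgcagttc
Csf3r, chr5:143582970-143583219, plus strand: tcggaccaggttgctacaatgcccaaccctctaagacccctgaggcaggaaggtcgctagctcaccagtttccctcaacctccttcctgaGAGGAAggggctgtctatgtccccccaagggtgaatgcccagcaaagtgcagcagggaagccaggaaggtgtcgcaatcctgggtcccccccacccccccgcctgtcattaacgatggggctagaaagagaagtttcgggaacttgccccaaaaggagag
The PU.1 core was found in 5 of the 7 upstream sequences, those of S100a9, Csf3r, Fpr1, Itgam and Ccr1, and in 23.3% of 33469 sequences of the same length. On the strand of the gene it starts 160 bases before the start site of Csf3r and 151 bases before that of Itgam. On the opposite strand it lies 209 bases before that of S100a9 and 39 bases before that of Itgam. The C/EBP motif was found upstream of Itgam and Mmp8, and in 9.22% of all sequences. Cxcr2 held neither motif, and the NF-kB consensus was found in 0 of the 7 sequences and in 6.33% of all. These are matches of letters and not measured sites.

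The first comparison asked whether sepsis changed the markers under isoflurane. S100a8, S100a9, Csf3r, Ccr1 and Itgam rose, by 3.61-fold (Csf3r) to 7.80-fold (Itgam), and Cxcr2 and Mmp8 did not pass the test. Thus 5 of 7 tested markers were called higher and 0 lower, where 25.7% of the 10361 genes tested were called higher and 50.0% were called in either direction. The libraries of the 5 did not overlap with the controls, as for 23.4% of all genes tested. A gene was called at an adjusted p below 0.05 in the edgeR quasi-likelihood test with Benjamini-Hochberg adjustment over all genes tested. The median log2 fold change of the 7 markers was 1.94, against 0.0061 over all genes tested.

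S100a8 and S100a9 form calprotectin, a calcium- and zinc-binding protein that fills the cytoplasm of neutrophils and signals danger when released. The S100a8 level was 10.2, 25.2, 37.8 and 30.4 CPM in libraries 1 to 4 of isoflurane + sepsis and 4.61, 4.33, 5.46 and 4.39 CPM in isoflurane control libraries 5 to 8. Every septic library lay above every control library, with library 1 nearest to the controls. S100a8 rose 5.61-fold, a log2 fold change of 2.49 (SE 0.356, edgeR adjusted p = 0.000694). S100a9 was at 13.9, 30.6, 49.3 and 39.1 CPM with sepsis and at 8.10, 8.51, 8.26 and 9.22 CPM without it. The order of the septic libraries was that of S100a8, and the groups again did not overlap. S100a9 rose 3.95-fold, a log2 fold change of 1.98 (SE 0.331, edgeR adjusted p = 0.00148).

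Among the receptors, Csf3r, which binds granulocyte colony-stimulating factor, was at 2.33, 4.53, 7.76 and 6.54 CPM in the septic libraries and at 1.27, 1.38, 1.87 and 1.43 CPM in the controls. The groups did not overlap, and the log2 fold change was 1.85 (SE 0.353, edgeR adjusted p = 0.00277). Ccr1, a receptor for Ccl3 and related chemokines on monocytes and neutrophils, was at 0.843, 1.55, 2.59 and 2.94 CPM with sepsis and at 0.471, 0.443, 0.514 and 0.609 CPM without. Its groups were also separate, with a log2 fold change of 1.94 (SE 0.392, edgeR adjusted p = 0.00373). Cxcr2, the receptor for the neutrophil chemokines Cxcl1 and Cxcl2, was at 0.644, 1.03, 1.97 and 0.942 CPM with sepsis and at 0.612, 0.590, 0.700 and 0.651 CPM without. Library 3 was high and library 1 lay among the controls. The log2 fold change of Cxcr2 was 0.86 (95% interval 0.09 to 1.63, edgeR adjusted p = 0.0605).

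Fpr1, the receptor for formylated bacterial peptides, had 0, 2, 4 and 0 reads in libraries 1 to 4 and 4 reads in all 4 isoflurane controls. The ratio of the group levels was 2.23 with an exact counting interval of 0.530 to 10.8, so a difference was not detectable at this depth. That interval covers counting error only.

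Itgam, the CD11b chain of the integrin Mac-1 on neutrophils, monocytes and some macrophages, had the largest log2 fold change of the markers, 2.96 (SE 0.324, edgeR adjusted p = 0.000209). It ranked 75 from the top among 10361 genes tested. Its level was 7.58, 9.31, 15.3 and 18.4 CPM with sepsis and 1.41, 1.48, 2.29 and 1.45 CPM in the controls. The lowest septic library was above the highest control, which was library 7.

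Mmp8, the neutrophil collagenase, is stored in the specific granules. It was at 1.59, 2.52, 4.09 and 2.24 CPM with sepsis and at 1.46, 1.43, 1.96 and 1.79 CPM without. Library 1 lay within the control range, and the log2 fold change of 0.67 was not called (95% interval 0.03 to 1.31, edgeR adjusted p = 0.0771). Without library 1, Cxcr2 had a log2 fold change of 1.08 (edgeR adjusted p = 0.0161) and Mmp8 of 0.86 (edgeR adjusted p = 0.0174), and both were called. The calls over all genes rose too without library 1, from 5183 of 10361 to 5668 of 10454. Ly6c, a surface protein used in rodents to sort inflammatory monocytes, had 0 reads in all 16 libraries, which allows up to 0.0601 to 0.211 CPM per library at 3 reads. Ly6c belongs to a family of similar genes, and how reads with more than 1 match were counted is not given in the sources used here.

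**Figure D1:**
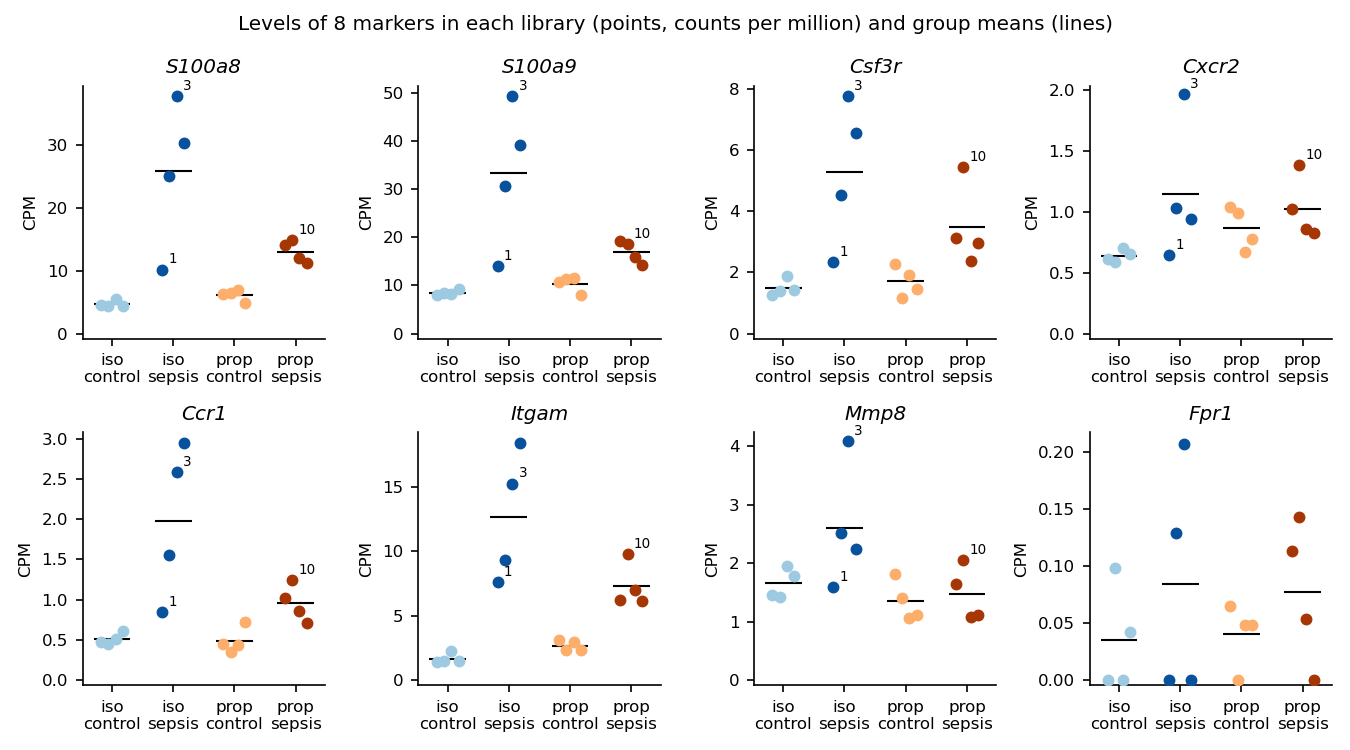
Level of 8 markers in CPM (vertical axis, linear, from 0) in each library (points) of the 4 groups, with the group mean as a line and libraries 1, 3 and 10 numbered except in the panel of Fpr1. For S100a8, S100a9, Csf3r, Ccr1 and Itgam every isoflurane + sepsis library lies above every isoflurane control, while Cxcr2 and Mmp8 overlap and Fpr1 stays at or below 4 reads per library.

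Under propofol the same question was asked with separate rats. S100a8, S100a9, Csf3r, Ccr1 and Itgam were called higher, by 1.64-fold (S100a9) to 2.74-fold (Itgam), and Cxcr2 and Mmp8 were not called. That is 5 of 7 tested markers called higher and 0 lower, against 20.4% of 10348 genes tested called higher and 42.1% in either direction. In 4 of them every septic library lay above every control library, as for 20.1% of all genes tested. The median log2 fold change of the 7 markers was 0.93, against -0.0016 over all genes tested. Without library 10, 4 of 7 were called, and Ccr1 was the one lost. In that fit 2074 of 10397 genes (19.9%) were called higher.

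S100a8 was at 14.1, 14.9, 12 and 11.3 CPM in libraries 9 to 12 of propofol + sepsis and at 6.29, 6.42, 6.95 and 4.88 CPM in propofol controls 13 to 16. The septic libraries were tightly grouped and all above the controls. The log2 fold change was 1.09 (SE 0.138, edgeR adjusted p = 0.000289), and 1.01 (edgeR adjusted p = 0.000348) without library 10. S100a9 was at 19.1, 18.5, 15.8 and 14.3 CPM with sepsis and at 10.8, 11.3, 11.6 and 7.92 CPM without. These groups were separate too, with a log2 fold change of 0.71 (SE 0.141, edgeR adjusted p = 0.00311) and of 0.66 without library 10 (edgeR adjusted p = 0.00583).

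Csf3r was at 3.12, 5.43, 2.37 and 2.95 CPM in the septic and 2.27, 1.17, 1.92 and 1.45 CPM in the control libraries under propofol. Library 10 was the high one, and the lowest septic library lay just above the highest control. The log2 fold change was 1.04 (SE 0.303, edgeR adjusted p = 0.0208), and 0.73 (edgeR adjusted p = 0.0230) without library 10. The call was lost without control library 14 (edgeR adjusted p = 0.0603) or 16 (edgeR adjusted p = 0.0547).

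For Ccr1 the septic libraries were at 1.02, 1.24, 0.861 and 0.706 CPM and the controls at 0.454, 0.350, 0.431 and 0.725 CPM. Control library 16 overlapped with the septic libraries. Its log2 fold change of 0.93 (SE 0.301, edgeR adjusted p = 0.0315) was no longer called without library 10 (0.75, edgeR adjusted p = 0.0761), nor without library 9, 13, 14 or 15 (edgeR adjusted p up to 0.0828). The call of Ccr1 held in 6 of 15 alternatives, and was also lost by DESeq2, with no limit on low counts, with thinned counts and in a fit of all 16 libraries. Cxcr2 was at 1.02, 1.38, 0.861 and 0.83 CPM with sepsis and 1.04, 0.992, 0.671 and 0.773 CPM without, a log2 fold change of 0.25 (95% interval -0.33 to 0.83, edgeR adjusted p = 0.468) and of 0.06 without library 10 (edgeR adjusted p = 0.875). Fpr1 had 6 reads in the septic and 3 in the control group, a ratio of 1.59 (exact counting interval 0.340 to 9.83), and 3 of the 6 reads were in library 10.

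Itgam again had the largest log2 fold change of the markers. Its level was 6.24, 9.77, 7.00 and 6.14 CPM with sepsis and 3.11, 2.33, 2.92 and 2.32 CPM without. The groups were separate, and the log2 fold change was 1.45 (SE 0.193, edgeR adjusted p = 0.000377), or 1.27 (edgeR adjusted p = 0.000122) without library 10. Itgam is also transcribed by microglia, the macrophages of the brain, and the part of the brain RNA in library 10 in its level was not tested beyond that value. Mmp8 was at 1.65, 2.05, 1.08 and 1.11 CPM with sepsis and 1.82, 1.40, 1.05 and 1.11 CPM without, a log2 fold change of 0.14 (95% interval -0.50 to 0.77, edgeR adjusted p = 0.722) and of -0.08 without library 10 (edgeR adjusted p = 0.831).

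**Figure D2:**
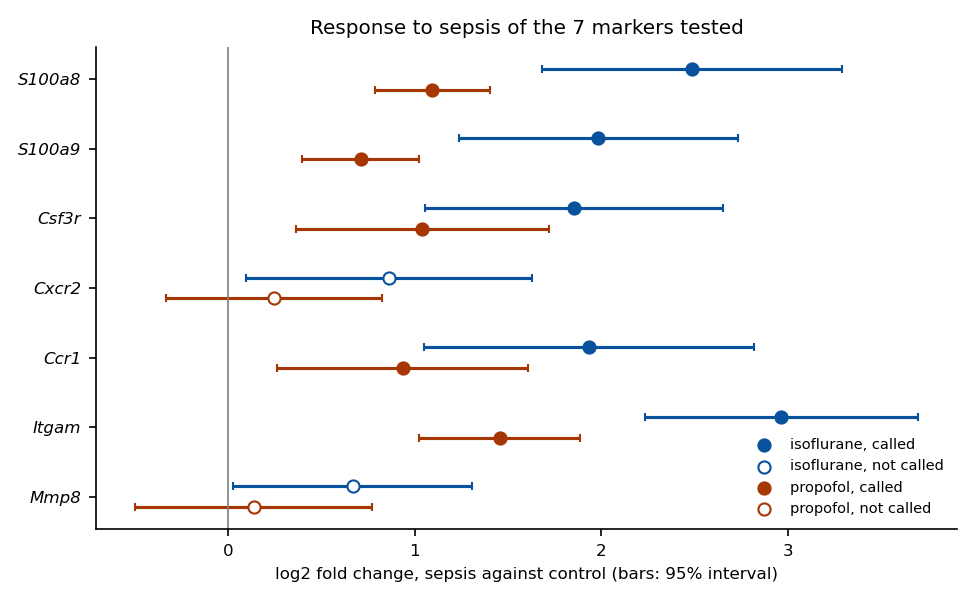
Log2 fold change of the 7 markers tested (horizontal axis, points) with 95% intervals (bars) in sepsis against control, under isoflurane (blue) and propofol (brown), with filled points for genes called and open points for genes not called. All 14 points lie above 0, from 0.14 (Mmp8 under propofol) to 2.96 (Itgam under isoflurane), and each isoflurane point lies to the right of the propofol point of the same gene.

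Whether the response to sepsis differed between the anesthetics was examined through the interaction term of a fit with all 16 libraries, with a positive value where the change was larger under isoflurane. The interaction was called for 0 of 7 markers, where 2.72% of 10621 genes tested were called. By edgeR 3 markers had an unadjusted p below 0.05, a share that was not counted over all genes. By DESeq2, S100a8, S100a9 and Itgam were called, where it called 850 of 10621 genes. The estimates were above 0 for 7 of 7, with a median of 1.00 against -0.016 over all genes. Itgam had the largest, 1.5 (95% interval 0.67 to 2.33, edgeR adjusted p = 0.0520), followed by S100a8 with 1.38 (95% interval 0.54 to 2.22, edgeR adjusted p = 0.0671) and S100a9 with 1.26 (95% interval 0.46 to 2.06, edgeR adjusted p = 0.0745). Those of Ccr1, Csf3r, Cxcr2 and Mmp8 lay between 0.52 and 1.00, with intervals that included 0. Without library 1 the same 3 markers were called, S100a8 at 1.65 (edgeR adjusted p = 0.000962), S100a9 at 1.52 (edgeR adjusted p = 0.00167) and Itgam at 1.68 (edgeR adjusted p = 0.00803). The calls over all genes rose as well without library 1, from 289 of 10621 to 1615 of 10708. Without library 3 edgeR called none of the 7, and the estimate of Itgam was 1.40 (edgeR adjusted p = 0.0958). Without library 10 that of Itgam was 1.69 (edgeR adjusted p = 0.0372), and it was the only marker called.

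The levels of the 5 markers that rose under both anesthetics had a common order of group means for S100a8, S100a9, Csf3r and Itgam, highest in isoflurane + sepsis, then propofol + sepsis, propofol control and isoflurane control. For S100a8 the means were 25.9 ± 11.7, 13.1 ± 1.71, 6.14 ± 0.885 and 4.70 ± 0.523 CPM (SD, n = 4 libraries). For Itgam they were 12.6 ± 5.05, 7.29 ± 1.70, 2.67 ± 0.407 and 1.66 ± 0.422 CPM (SD, n = 4). The spread was widest in isoflurane + sepsis. Without library 10 the propofol + sepsis mean was 12.4 ± 1.46 CPM for S100a8 and 6.46 ± 0.468 CPM for Itgam (SD, n = 3), which leaves the order as it was.

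Between the septic groups 0 of 7 markers were called by edgeR, where 19.3% of 10272 genes were called. For 5 of the 7 the unadjusted p was below 0.05, a share that was not counted over all genes. DESeq2 called 3 of the 7, and 2885 of the 10272 genes. S100a8 was 1.99-fold the propofol + sepsis level (95% interval of the log2 fold change 0.24 to 1.75, edgeR adjusted p = 0.0635), and S100a9 1.97-fold (0.25 to 1.71, edgeR adjusted p = 0.0610). Library 1 lay below every propofol + sepsis library for S100a8, S100a9, Csf3r and Cxcr2 and within their range for Ccr1, Itgam and Mmp8. Without library 1 edgeR called 4 of 7 markers, and more of all genes too, 2867 of 10355. Without library 10 edgeR called 0 of 7, with S100a8 at a log2 fold change of 1.08 (edgeR adjusted p = 0.0720) and Itgam at 0.99 (edgeR adjusted p = 0.0507). Between the control groups Itgam was 0.616-fold its propofol control level in isoflurane controls, a log2 fold change of -0.70 (SE 0.188, edgeR adjusted p = 0.0121), with every library below. S100a8 was also called lower, at -0.38 (SE 0.127, edgeR adjusted p = 0.0311), although its libraries overlapped and the call held in 8 of 16 alternatives. These 2 of 6 tested markers compare with 21.7% of 10314 genes called lower and 43.3% called in either direction. Scaling by library totals alone moved the median of all genes by -0.146 in this comparison, and both log2 fold changes stayed below it.

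The levels of the markers relative to each other were compared as reads per S100a9 read, which does not depend on library scaling. S100a8, the partner of S100a9 in calprotectin, had 0.733 to 0.821 in isoflurane + sepsis against 0.476 to 0.661 in its controls. Under propofol the ratio was 0.736 to 0.805 with sepsis and 0.570 to 0.616 without. Itgam had 0.304 to 0.544 reads per S100a9 read in isoflurane + sepsis and 0.157 to 0.277 in control, and 0.326 to 0.527 and 0.207 to 0.293 under propofol. Septic libraries lay above the controls in each of these 4 comparisons. Cxcr2 and Mmp8 lay the other way under isoflurane. Mmp8 had 0.168 to 0.237 reads per S100a9 read in isoflurane control and 0.0572 to 0.114 with sepsis, and Cxcr2 had 0.0694 to 0.0847 in control and 0.0241 to 0.0463 with sepsis, both without overlap. Under propofol both overlapped through library 10, at 0.0745 for Cxcr2 and 0.111 for Mmp8. The other septic libraries had 0.0534 to 0.0579 for Cxcr2 and 0.068 to 0.0861 for Mmp8, below the propofol controls at 0.0581 to 0.0976 and 0.0913 to 0.169. The S100a8 and Itgam ratios of septic libraries stayed above the controls without library 10. Csf3r and Ccr1 per S100a9 read overlapped under both anesthetics. The exact two-sided permutation p of each comparison without overlap was 0.0286, the smallest that 4 libraries against 4 allow, and 0.0571 after adjustment over the 12 ratios compared, so none passed. The ratios were chosen after the values had been seen.

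**Figure D3:**
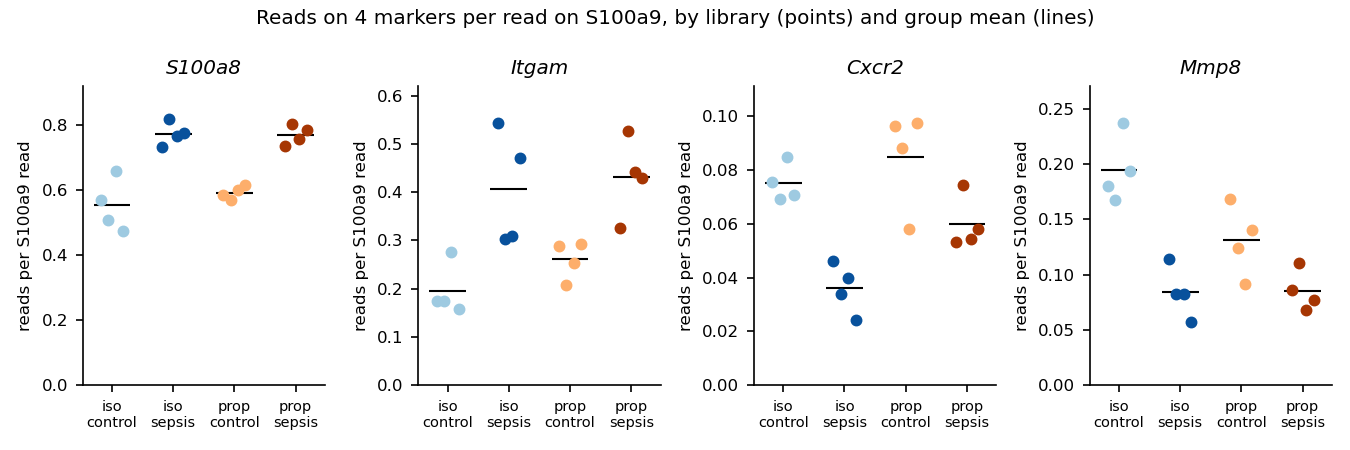
Reads on S100a8, Itgam, Cxcr2 and Mmp8 per read on S100a9 (vertical axis, linear, from 0) in each library (points), with the group mean as a line. S100a8 and Itgam lie higher in septic than in control libraries under both anesthetics, and Cxcr2 and Mmp8 lie lower with sepsis under isoflurane and overlap under propofol, where library 10 is the highest septic point.

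Within groups the markers varied together. After the mean of each group was taken away, Pearson's r between 2 markers over the 16 libraries was above 0 for 21 of 21 pairs, from 0.53 to 0.97 with a median of 0.72. The highest were S100a8 with S100a9 (0.97) and Cxcr2 with Mmp8 (0.95). Library 1 was the lowest of its group for 7 of 7 markers, at -0.61 to -1.18 from the group mean on the log2 scale, library 3 the highest of its group for 5 and library 10 the highest of its group for 6. Markers of 1 library share its pool of rats and its depth. Genes outside the set reached such values too. The highest of 9684 were Plekha5 with S100a8 (r = 0.95) and Arhgef7 with Cxcr2 and with Mmp8 (0.92 each). The r of pairs of other genes was not computed, so whether the markers vary together more than other genes was not tested. Without library 1 the median r was 0.55, and without libraries 1, 3 and 10 it was 0.34, with 18 of 21 pairs above 0, S100a8 with S100a9 at 0.79 and Cxcr2 with Mmp8 at 0.91.

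**Figure D4:**
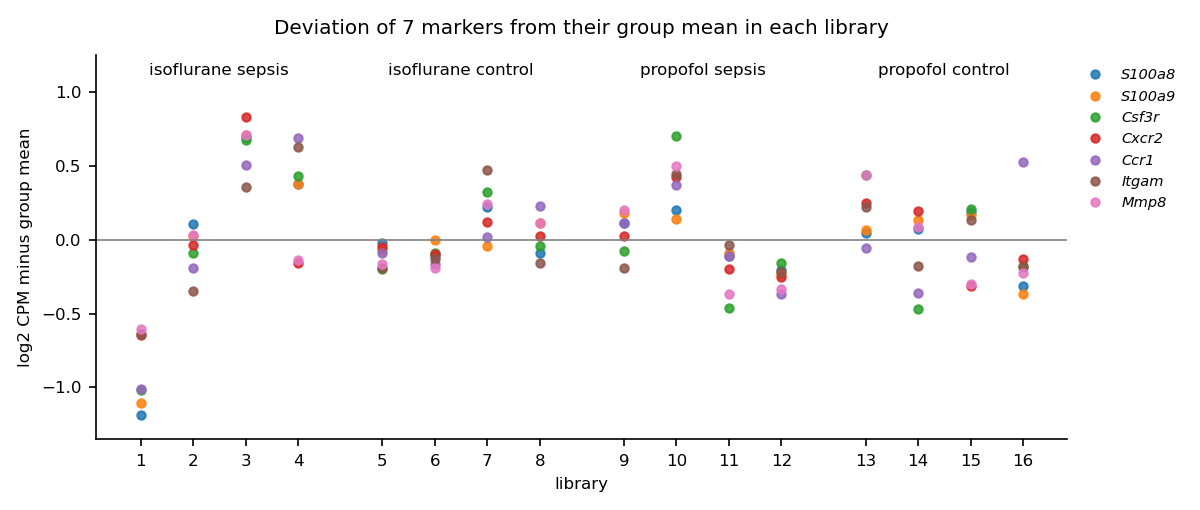
Log2 CPM of 7 markers minus the mean of their group (vertical axis) in each of the 16 libraries (horizontal axis, by group). All 7 points of library 1 lie at -0.61 or lower, all 7 of library 3 and of library 10 lie above 0, and the isoflurane control libraries lie between -0.20 and 0.47.

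Of 9684 other genes whose log2 CPM averaged 0 or more, Serpinb1a, an inhibitor of neutrophil proteases, was the most like S100a8 over the 16 libraries (Pearson's r = 0.98). Slpi, a secreted inhibitor of neutrophil elastase, was the most like Itgam (0.98), followed by Mbd2, Lcp1, Il1b and Hivep2. For Csf3r it was Mmp9, a gelatinase of neutrophil granules (0.95), and for S100a9 Kpna4 (0.98). Those of Cxcr2, Mmp8 and Ccr1 were Map2k1 (0.90), Mef2a (0.92) and Gtf2ird1 (0.96). These values include the difference between the groups. On deviations from the group means the most like was Plekha5 for S100a8 (0.95) and S100a9 (0.96), and Fmnl1 for Csf3r (0.94). Gab1 (0.92) was then the most like Itgam, followed by Slpi (0.92). Serpinb1a and Mmp9 were not among the 5 most like S100a8 and Csf3r on that scale.

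Other genes of the same cells were followed by lists written by hand, whose propofol counts are also given without library 10 where they differ. Beside all list counts below stand the shares over all genes tested. These were 25.7% called higher under isoflurane and 20.4% under propofol, with 50.0% and 42.1% called in either direction. Without library 1 the share called higher under isoflurane was 28.2%, and without library 10 that under propofol was 19.9%. Of 8 tested genes for neutrophil granule and matrix-degrading proteins, Mmp8 among them, 7 were called higher under isoflurane and 6 under propofol (5 without library 10), and 0 lower. Lcn2, which takes iron-carrying siderophores from bacteria, had a log2 fold change of 3.20 under isoflurane (edgeR adjusted p = 1.82e-05) and 2.24 under propofol (edgeR adjusted p = 0.000421). Lcn2 is also made by hepatocytes. Olfm4, a protein of a subset of neutrophils, had 3.55 and 2.04, and Ngp, a neutrophil granule protein, had 200 reads in isoflurane + sepsis and 5 in its controls, and 191 and 6 reads under propofol. Slpi had 3.01 and 1.05, and its interaction was called (1.96, edgeR adjusted p = 0.0183). Mpo, Elane, Prtn3, Ctsg and Ltf, transcribed mainly by immature neutrophils in the marrow, had between 0 and 3 reads in each whole group. Camp, of the same list, went the way of Ngp, with 67 against 7 reads under isoflurane and 48 against 3 under propofol. The stage of the neutrophils was not tested.

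All 6 subunits of the phagocyte NADPH oxidase, the enzyme of the respiratory burst, were called higher under isoflurane and 3 under propofol. Ncf4 had a log2 fold change of 1.94 under isoflurane and 1.04 under propofol, Cybb 1.61 and 0.88, and Rac2 1.51 and 0.71. Of 16 further neutrophil receptors and signaling proteins tested, 11 were called higher under isoflurane, and 6 higher and 1 lower under propofol. The highest levels of this list were those of Fcgr2b, also counted among the endothelial genes below, and Il1rap. Their group means were 42.6 to 51.1 CPM and 49.0 to 68.2 CPM. The part of other cells in the levels of this list was not tested. Trem1, which amplifies the inflammatory response of neutrophils and monocytes, had 2.44 and 1.37, Alox5, the enzyme that starts leukotriene synthesis, 2.41 and 0.87, and Il1r2, the decoy receptor of interleukin-1, 1.79 and 1.88. Trem3 had 3.35 under isoflurane and was not tested under propofol. Hdc, which makes histamine, fell by 1.77 on the log2 scale under propofol (edgeR adjusted p = 0.00232). Of the 5 other leukocyte integrin chains tested 3 were called higher under isoflurane and 2 under propofol. Itgb2, the partner of Itgam in Mac-1, had 0.83 (edgeR adjusted p = 0.00212) and 0.43 (edgeR adjusted p = 0.00490), where Itgam had 2.96 and 1.45.

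Of 12 monocyte genes other than Ccr1, 7 were called higher under isoflurane, and 6 higher and 1 lower under propofol. The largest under isoflurane were Thbs1 with 3.84, Cd14, a receptor for bacterial lipopolysaccharide, with 2.83, and Vcan with 2.59, and under propofol these had 2.94, 1.76 and 2.39. Nr4a1, which is needed by patrolling monocytes and induced early in many cells, had 2.52 and 3.11. Fcgr1a fell by 1.33 on the log2 scale under propofol (edgeR adjusted p = 0.000377). Thbs1, Vcan and Nr4a1 are made by other liver cells too, and their share was not tested. Among 6 other S100 genes tested under isoflurane, 3 were called higher, led by S100a4 with 1.77, and S100a16 was called lower. Without library 1, 4 were called higher and 0 lower. Under propofol 0 of 7 were called higher and S100a16 was lower.

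Ligands of the receptors were also called. Of 4 tested ligands of Cxcr2, 2 were called higher under isoflurane and 1 of 3 under propofol (2 without library 10). Cxcl2 was at 11.5 to 18.1 CPM in isoflurane + sepsis and 0.197 to 0.283 CPM in control, a log2 fold change of 6.06 (edgeR adjusted p = 6.37e-06), and had 5.44 under propofol (edgeR adjusted p = 3.88e-06). Cxcl5 had 111 reads with and 2 without sepsis under isoflurane. Cxcl1 was not called (-0.04 and 0.54), and Mif fell by 0.29 on the log2 scale under propofol. Ligands of Ccr1 were called higher for 6 of 6 genes under isoflurane, 5 without library 1, and for 3 of 6 under propofol. Ccl3 had 5.06 and 3.17, and its interaction was called (1.88, edgeR adjusted p = 0.0442). Ccl7 had 228 against 5 reads and 174 against 10 reads, and Ccl4 had 3.80 and 2.97.

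Csf3, the ligand of Csf3r, had 201 reads in isoflurane + sepsis and 3 in its controls, and 67 and 0 reads under propofol, where it was not tested. Icam1, the endothelial counter-receptor of Mac-1, had 1.23 and 0.65 and was called under both anesthetics, as was Timp1, an inhibitor of matrix metalloproteinases such as Mmp8, with 2.19 and 1.68. Tlr4, a receptor for S100a8 and S100a9, was not called (0.39 and 0.09), and Anxa1, a ligand of the formyl peptide receptors, was called at 0.92 and 0.41. In all, 8 of 14 such partners were higher under isoflurane and 6 of 12 under propofol, where Jam3 was lower (7 higher and 0 lower without library 10). Of all genes tested 25.7% and 20.4% were called higher. The list of partners includes Fga, Fgb, Fgg and C3, which had group means of 23009 to 43138 CPM in these livers.

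Markers of other cells moved beside them. Of 13 pan-leukocyte genes tested, 12 were called higher under isoflurane and 11 under propofol (10 without library 10), with Ptprc, the CD45 gene, at 1.21 and 0.57. Their summed level was 162 to 260 CPM in isoflurane + sepsis and 86.8 to 95.5 CPM in control, and 170 to 201 and 114 to 138 CPM under propofol. The summed level of the 9 markers was 37.1 to 119 CPM in isoflurane + sepsis and 17.9 to 21.1 CPM in control, and 37.3 to 53.5 and 19.2 to 25.8 CPM under propofol. Of 10 Kupffer cell and macrophage genes 6 were higher and 1 lower under isoflurane, and 3 higher and 1 lower under propofol, and Clec4f, a Kupffer cell lectin, fell by 0.60 and by 0.82 on the log2 scale. Their summed level overlapped, at 441 to 589 against 390 to 480 CPM and 403 to 510 against 442 to 507 CPM. Of 6 T and NK cell genes tested 4 were higher under isoflurane (Prf1, Cd8a, Klrd1 and Nkg7), and 2 were lower under propofol (Lck and Cd4). Their summed level was 17.1 to 26.9 against 15.0 to 17.7 CPM under isoflurane and 14 to 17.2 against 18.6 to 20.5 CPM under propofol. The part of these cells in the marker levels was not tested. Without library 1 the isoflurane counts were 8 of 8 higher for granule genes other than Mmp8 and 13 of 17 for further neutrophil receptors. They were 8 of 12 for monocyte genes and 3 of 5 for ligands of Cxcr2. Kupffer cell genes were 7 higher and 2 lower of 10. Over all genes in that fit, 2945 of 10454 (28.2%) were called higher and 2723 lower.

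Red cell genes, which follow the blood left in the tissue, were called for 0 of 6 tested under each anesthetic by edgeR, with 0 at an unadjusted p below 0.05. Without library 10, 1 of the 6 was called lower under propofol. Their summed level was 398 to 517 CPM in isoflurane + sepsis and 399 to 600 CPM in control, and 422 to 560 and 442 to 712 CPM under propofol. Of platelet genes 0 of 2 were called under either. Of 8 endothelial genes 0 were higher and 5 lower under isoflurane, and 1 was higher and 2 lower under propofol, with Kdr the largest fall, by 2.17 and by 1.82 on the log2 scale. Of 12 hepatocyte genes 4 were lower and 0 higher under each (3 lower under isoflurane without library 1, and 3 under propofol without library 10). Over all genes tested, 2723 of 10454 were called lower under isoflurane without library 1, and 2217 of 10397 under propofol without library 10. The 3 of 12 hepatocyte genes are near these shares. Stellate cell genes were 3 higher and 1 lower of 8 under isoflurane and 1 higher and 3 lower under propofol, and cholangiocyte genes 2 of 3 higher and 1 of 3 higher. Cd22, the 1 B cell gene tested, was lower under propofol (-0.99, edgeR adjusted p = 0.0352). Of the brain genes 0 of 4 tested were called under isoflurane (1 of 5 without library 1) and 2 of 7 under propofol, and 0 of 7 without library 10.

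**Figure D5:**
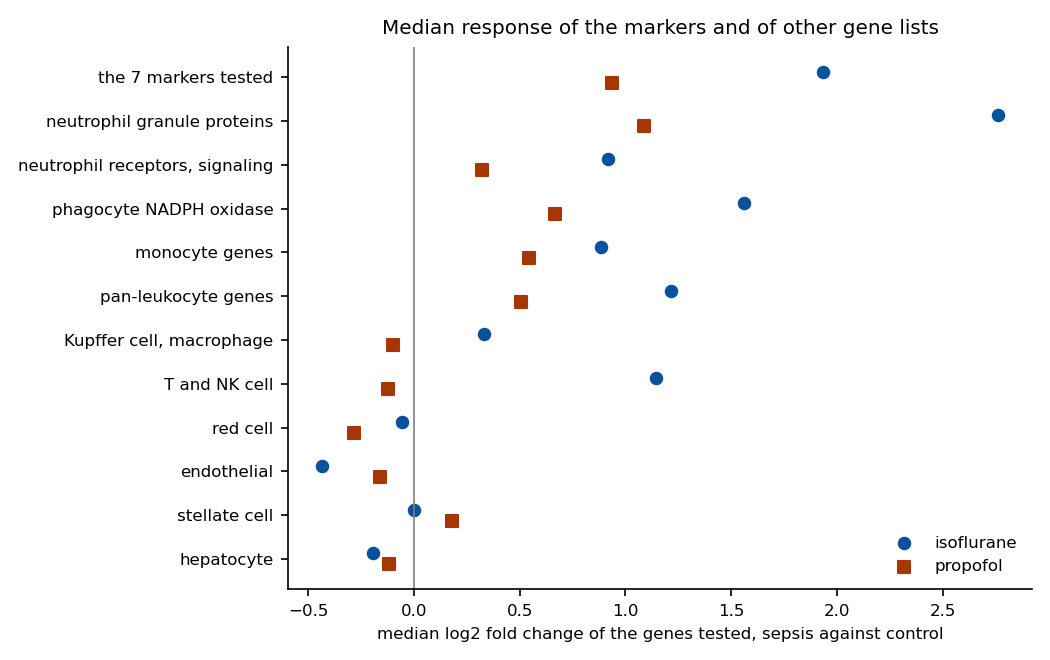
Median log2 fold change with sepsis (horizontal axis) of the genes tested in each list, under isoflurane (blue circles) and propofol (brown squares). The medians of the markers are 1.94 and 0.93, those of neutrophil granule genes 2.76 and 1.09, those of pan-leukocyte genes 1.21 and 0.51, and those of red cell and hepatocyte genes lie below 0.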

How the data were processed

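RNA was sequenced from 16 liver libraries, each a pool of 3 rats, from polyadenylated RNA with a kit that keeps the strand. The authors deposited whole-number counts of reads per gene symbol and library, without normalization. The submitters' processing notes name STAR and the build rn5. The sources used here do not give the counting program, its settings or the annotation. Entries that name no gene, of which reads outside genes made up 21.61% to 25.39% of a library, were left out.

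Groups were compared in R 4.3.3 with edgeR 4.0.16 (glmQLFit and glmQLFTest), with TMM scaling, filterByExpr (minimum count 10, minimum total 15) and Benjamini-Hochberg adjustment over all genes tested, in fits of 4 libraries against 4. The interaction used all 16. A gene was called at an adjusted p below 0.05. Alternatives were RLE size factors, library totals, DESeq2 1.42.0 (the tool the study names), limma-voom (limma 3.58.1), keeping every gene with a read, keeping genes that average 1 CPM or more, thinned counts, a joint fit of all 16 libraries, a threshold of 0.01, and leaving out each library in turn. A log2 level for correlations used a prior count of 2.

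The markers, the gene lists and the tests were chosen with earlier results of these data known, 2 genes wrongly placed in lists of S100 proteins and Ccr1 ligands were then taken out, and the brain genes and the ratios to S100a9 after their values had been seen. From each list the text names called genes with the largest changes, ligands and partners by value or count, and others chosen after their values were seen. Pools are the replicates, so the SD is between pools and not between rats. Promoter sequences came from RefSeq (GRCr8) and were not used with rn5 coordinates. A brain gene is not reported here by name and remains in the counts.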

Additional observations from a re-analysis of the deposited data

Results flagged for a closer look

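Of 28 groups of 4 library values (7 markers in 4 groups), 1 had a library far from the other libraries of its group. Itgam was at 2.29 CPM in isoflurane control library 7, against 1.41 to 1.48 CPM in libraries 5, 6 and 8. Chance marks about 1 in 20 such groups. Library 7 was also the highest isoflurane control for 5 of the 7 markers. Without it the log2 fold change of Itgam with sepsis under isoflurane was 3.14 (edgeR adjusted p = 0.000952).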

How the results depend on the processing

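Under isoflurane 5 to 7 of the 7 markers were called with 1 library left out, and 7 only without library 1. All genes called under isoflurane were 5183 of 10361 in the main fit and 5668 of 10454 without library 1. Under propofol 3 to 5 were called, 3 without library 14, and 3 at an adjusted p below 0.01. Over all genes 4353 of 10348 were called there in the main fit and 3501 of 10465 without library 14. The calls over all genes at 0.01 were not counted in any comparison. The interaction was called for 0 to 3 markers with 1 library left out, for 3 without library 1, for 1 (Itgam) without library 2 or 10, and for 3 by DESeq2. Over all genes it was called for 289 of 10621 in the main fit, 1615 of 10708 without library 1 and 850 of 10621 by DESeq2. Between the controls 1 to 3 were called with 1 library left out, 1 with thinned counts, 0 with all 16 libraries in 1 fit and 0 at an adjusted p below 0.01. All genes called there were 4468 of 10314 in the main fit and, with 1 library left out, 3715 of 10379 to 4321 of 10407. They were 3987 of 10002 with thinned counts and 2793 of 10621 with all 16 libraries in 1 fit. Between the septic groups 0 to 4 were called with 1 library left out, 4 without library 1, 3 by DESeq2 and 5 with all 16 libraries in 1 fit. All genes called in that comparison were 1982 of 10272 in the main fit and 2867 of 10355 without library 1. They were 2885 of 10272 by DESeq2 and 4099 of 10621 with all 16 libraries in 1 fit. The cause of these differences was not tested. For single markers, 541 of 587 alternative values kept the side of the threshold, 20 lost the call and 26 gained it. None changed sign while called. Some values that were not called did change sign, such as Mmp8 under propofol, from 0.14 to as low as -0.11. Under every alternative run, S100a8, S100a9, Csf3r, Ccr1 and Itgam were called higher under isoflurane, and S100a8, S100a9 and Itgam under propofol. No paired analysis was possible because the groups share no replicate numbers in the labels.

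Depth limits Fpr1, Mpo and Elane, whose changes could not be tested at these read numbers. The 4 pools per group limit the precision of the interaction.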
